A study of Rattus norvegicus with 8 samples.

Results

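Syndecans and glypicans are the main families of cell-surface proteoglycans that carry heparan sulfate. The 10 rat genes Sdc1 to Sdc4 and Gpc1 to Gpc6 were looked up by symbol in the table of counts per gene. Of these, 9 were found among 37209 genes, 4 syndecans and 5 glypicans, and Gpc6 had no row and was not analysed here. mRNA was measured by sequencing in 4 injured carotid arteries and 4 control carotid arteries of male rats of the Sprague-Dawley stock weighing 400 g on average. In the injured group, a balloon catheter had been used on the left carotid artery 2 weeks before harvest. The control group was the undamaged right carotid artery, so it was taken from operated animals and not from untouched ones. Each library held between 11459632 and 16658089 counts. The whole artery was sequenced, so fewer cells of a type and less RNA per cell cannot be told apart.

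A syndecan spans the membrane once and ends in a short cytoplasmic tail, whereas a glypican is held on the outer face of the membrane by a lipid (GPI) anchor. Their heparan sulfate chains bind growth factors, morphogens and matrix proteins such as fibronectin, and can present them to receptors or hold them in the matrix. In the arterial wall, syndecans are known as co-receptors for fibroblast growth factor and as partners of integrins in adhesion. Both families can be cut from the cell surface by proteases, and glypicans also by enzymes that cleave the anchor. Other enzymes cleave the chains.

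Gpc1 was the only member that was differentially expressed. A gene was called at a false discovery rate under 0.05 together with a fold change above 2, over all genes with enough counts for the test. Of the 9 members in the table, 6 had enough counts, namely the 4 syndecans, Gpc1 and Gpc2. Of these 6, 1 was called upregulated and 0 were called downregulated, while over all 14359 genes tested 10.9% were called, 8.31% upregulated and 2.57% downregulated in the injured arteries. In 3 of the 6, Sdc2, Gpc1 and Gpc2, every injured artery lay above every control artery, which held for 14.3% of all tested genes. With 6 genes, these shares describe the members and no more. The median log2 fold change was 0.24 for the 4 syndecans and 1.40 for the 2 glypicans, against -0.06 for all tested genes.

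**Figure D1:**
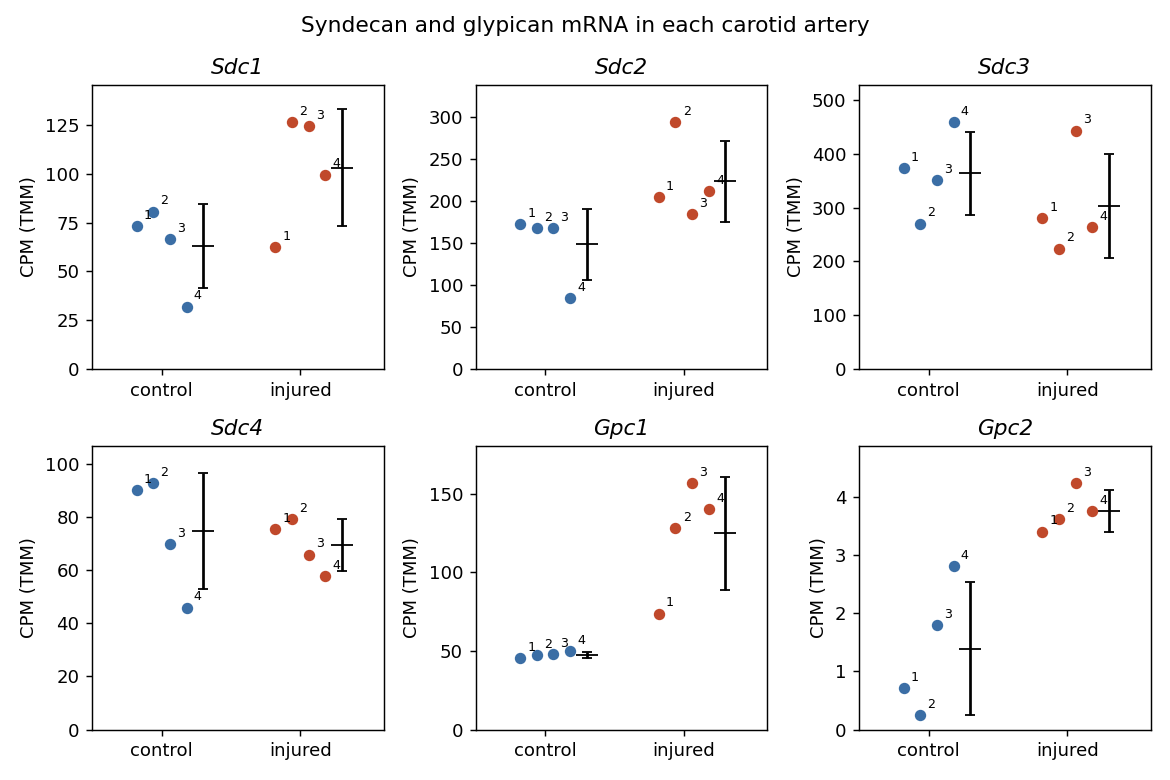
mRNA of the 6 members with enough counts, in CPM, 1 point per artery with its replicate number, and the mean with the SD (n = 4) beside each group. Every injured artery lies above every control for Sdc2, Gpc1 and Gpc2, and control artery 4 is the lowest control for Sdc1, Sdc2 and Sdc4.

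Glypican-1, the product of Gpc1, is the glypican known from many adult tissues and binds fibroblast growth factors through its chains. Its mRNA, in CPM (counts scaled to a common library size), was 45.3, 47.3, 48.3 and 49.9 CPM in control arteries 1 to 4. In injured arteries 1 to 4 it was 73.9, 128, 157 and 140 CPM. The controls lay within a narrow band, with an SD of 4.0% of their mean, the smallest among the 6 members tested, and the injured arteries differed among themselves, with an SD of 28.8% of their mean. Injured artery 1 was the lowest of its group and still above each control. The mean rose from 47.7 ± 1.91 CPM in the controls to 125 ± 36.0 CPM after injury (mean ± SD, n = 4 each), a ratio of 2.62. The log2 fold change was 1.38 (standard error, SE, 0.22, 95% interval 0.88 to 1.89), with a false discovery rate (FDR, the Benjamini-Hochberg adjusted p of edgeR's quasi-likelihood test throughout) of 0.00451. An exact permutation test of log2 CPM over all 70 relabellings gave p = 0.0286, two-sided, the smallest p that 4 arteries against 4 allow without pairing. This p is fixed once the groups do not overlap, here and for Sdc2 and Gpc2, so it adds nothing to that statement. The relabellings treated the arteries as exchangeable, although the groups share animals. Gpc1 was called in all 8 fits that each left out 1 artery, with a log2 fold change between 1.25 and 1.57. Without both control artery 4 and injured artery 3 it was 1.28 (FDR = 0.00291). In the GRCr8 annotation, Gpc1 overlaps Ankmy1, Mir149 and 1 unnamed locus, and the strand setting of the counting is not given in the sources used here. Ankmy1 lay between 3.49 and 6.33 CPM in all 8 arteries, with a log2 fold change of 0.40 (FDR = 0.221). Of all tested genes, 8.04% had a larger log2 fold change than Gpc1.

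Among the tested genes, the profile most like that of Gpc1 over the 8 arteries was that of Ptcd3, a mitochondrial translation protein. Likeness was measured as the mean absolute difference of log2 CPM, each gene centred on its own mean, and this was 0.16 for Ptcd3. Pappa, a protease of insulin-like growth factor binding proteins, also had 0.16, and LOC102547703 had 0.18. Their own log2 fold changes were 1.17, 1.28 and 1.49.

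Glypican-2, the product of Gpc2, is known mainly from developing neurons. Its counts were low throughout. Control arteries 1 to 4 had 10, 3, 26 and 41 counts, or 0.720, 0.246, 1.80 and 2.80 CPM. Injured arteries 1 to 4 had 57, 50, 76 and 46 counts, or 3.40, 3.62, 4.24 and 3.76 CPM. The injured arteries were close to each other and all above the controls, which were spread widely, with an SD of 82.1% of their mean against 9.45% after injury. The mean was 1.39 ± 1.14 CPM (SD, n = 4) in the controls and 3.76 ± 0.35 CPM (SD, n = 4) after injury. The log2 fold change of 1.41 (SE 0.59, 95% interval 0.04 to 2.78) had an FDR of 0.149, so Gpc2 was not called. The exact permutation test gave p = 0.0286, two-sided. Control artery 4 was the highest control, and without it the log2 fold change was 2.00 (FDR = 0.0276) and Gpc2 was called. Without both that artery and injured artery 3 it was 1.93 (FDR = 0.0287). None of the other 7 fits with 1 artery left out called Gpc2.

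Control artery 4 and injured artery 3 carried neuronal mRNA. The 11 sympathetic neuron markers examined, among them Th and Dbh of noradrenaline synthesis, summed to 11480 CPM in control artery 4 and to 5.82 to 9.14 CPM in the other controls. In the injured arteries they summed to 3234 CPM in artery 3, 213 CPM in artery 1, and 7.02 and 11.4 CPM in arteries 2 and 4. Of these markers, 10 had counts in control artery 4 and Npy had none there. The part of these neurons in the levels of Gpc2, and of the syndecans, was not tested. Injured arteries 2 and 4 had sums near those of the first 3 controls and had 3.62 and 3.76 CPM of Gpc2, above all 4 controls.

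Gpc5, a glypican known from kidney, brain and cartilage, had 5 counts in control artery 4 and 0 counts in each of the other 7 arteries. A count of 0 allows a level of up to 0.18 to 0.262 CPM, depending on the library, for counting error only. It had too few counts for the test.

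Gpc3 and Gpc4, both on the X chromosome in GRCr8, were listed at 0 in all 8 arteries, and these zeros cannot be read as levels. Of 608 protein-coding genes of the table that GRCr8 places on the X chromosome, 594 (97.7%) were listed at 0 in every artery. Over the autosomes this held for 1543 of 16019 genes (9.63%), and for 4.61% to 15.1% of the genes of a single autosome. The X-linked genes at 0 included Hprt1 and Pgk1, metabolic enzymes that nearly every cell uses, and Bgn and Timp1, which arteries are known to express. Cask, Gdpd2 and Hs6st2 of the pathway lists described here were X-linked and at 0 too. No statement on Gpc3 or Gpc4 mRNA follows from these counts, and the cause of the zeros was not tested.

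**Figure D2:**
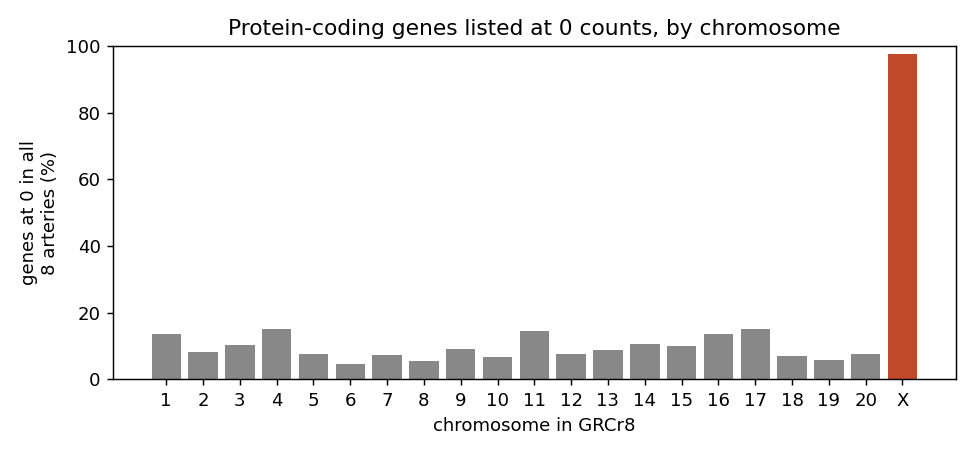
Share, in percent, of the protein-coding genes of the count table listed at 0 counts in all 8 arteries, by chromosome of the GRCr8 annotation. The X chromosome, which holds Gpc3 and Gpc4, stands at 97.7%, against at most 15.1% for any autosome.

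None of the 4 syndecans was called by edgeR's quasi-likelihood test or by DESeq2, with 1 at an unadjusted p under 0.05 in edgeR and 2 in DESeq2. Sdc1 and Sdc2 had higher mean levels after injury, and Sdc3 and Sdc4 had lower means. Control artery 4 was the lowest control for Sdc1, Sdc2 and Sdc4 and the highest for Sdc3.

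Syndecan-2, known from mesenchymal and endothelial cells, had 173, 168, 168 and 84.8 CPM in control arteries 1 to 4. In injured arteries 1 to 4 its mRNA (Sdc2) was 205, 295, 184 and 212 CPM. The groups did not overlap, and control artery 4 stood well below the other controls, which were nearly equal. The mean was 149 ± 42.6 CPM (SD, n = 4) in the controls and 224 ± 48.5 CPM (SD, n = 4) after injury. The log2 fold change was 0.59 (SE 0.25, 95% interval 0.01 to 1.17, FDR = 0.151). The exact permutation test gave p = 0.0286, two-sided. Without control artery 4 the log2 fold change was 0.40 (FDR = 0.0959), and without that artery and injured artery 3 it was 0.48 (FDR = 0.0346), a fold change under 2.

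Syndecan-1 (Sdc1) is known from epithelia and, as CD138, from plasma cells. Its mRNA was 73.1, 80.6, 66.5 and 32.0 CPM in control arteries 1 to 4. It was 62.4, 127, 124 and 99.6 CPM in injured arteries 1 to 4. Injured artery 1 lay below 3 of the 4 controls, and the other injured arteries lay above all controls. The mean was 63.1 ± 21.5 CPM (SD, n = 4) in the controls and 103 ± 29.8 CPM (SD, n = 4) after injury. The log2 fold change was 0.71 (SE 0.32, 95% interval -0.02 to 1.44, FDR = 0.172), and the exact permutation test gave p = 0.114, two-sided. It fell to 0.49 without control artery 4 (FDR = 0.151) and to 0.39 without that artery and injured artery 3 (FDR = 0.222).

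The 8 B and plasma cell markers summed to 0.432 to 0.901 CPM in the controls and to 5.02 to 34.9 CPM in the injured arteries, with Cd79a at 0 in all 8. Only 1 of the 8 had enough counts for the test, and it was called upregulated. This was Jchain, the joining chain of secreted antibodies. Injured artery 2 had the highest sum, 34.9 CPM, and also the highest Sdc1, 127 CPM. Injured artery 3 had the lowest sum of its group, 5.02 CPM, and nearly the same Sdc1, 124 CPM. The part of plasma cells in the Sdc1 level was not tested.

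Syndecan-3 (Sdc3) is known from neurons, Schwann cells and cartilage. Its mRNA was 374, 270, 351 and 459 CPM in control arteries 1 to 4. In injured arteries 1 to 4 it was 281, 224, 443 and 263 CPM. The groups overlapped, and the highest artery of each group was also its highest in sympathetic neuron markers. The mean was 364 ± 77.6 CPM (SD, n = 4) in the controls and 303 ± 96.6 CPM (SD, n = 4) after injury. The log2 fold change of -0.27 (SE 0.25, 95% interval -0.85 to 0.31) had an FDR of 0.512, and the exact permutation p was 0.286, two-sided. It was -0.13 without control artery 4, -0.52 without injured artery 3 and -0.37 without both, with an FDR of 0.71, 0.141 and 0.0832.

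Only 6 Schwann cell markers of a longer list are reported here. They include Mbp of the myelin sheath and the transcription factor Sox10, and they summed to 51.0, 50.2, 211 and 445 CPM in control arteries 1 to 4. In injured arteries 1 to 4 they summed to 238, 124, 518 and 323 CPM. Control artery 4 and injured artery 3 had the highest sums of their groups and of Sdc3. Ncmap alone did not follow this order, with 9.83 CPM in control artery 3 against 2.19 CPM in control artery 4, and 1.06 CPM in injured artery 3, the lowest of its group. Injured artery 4, however, had the second highest sum of its group and 263 CPM of Sdc3, and control artery 1 had one of the lowest sums and 374 CPM of Sdc3. The part of these cells in the Sdc3 level was not tested.

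**Figure D3:**
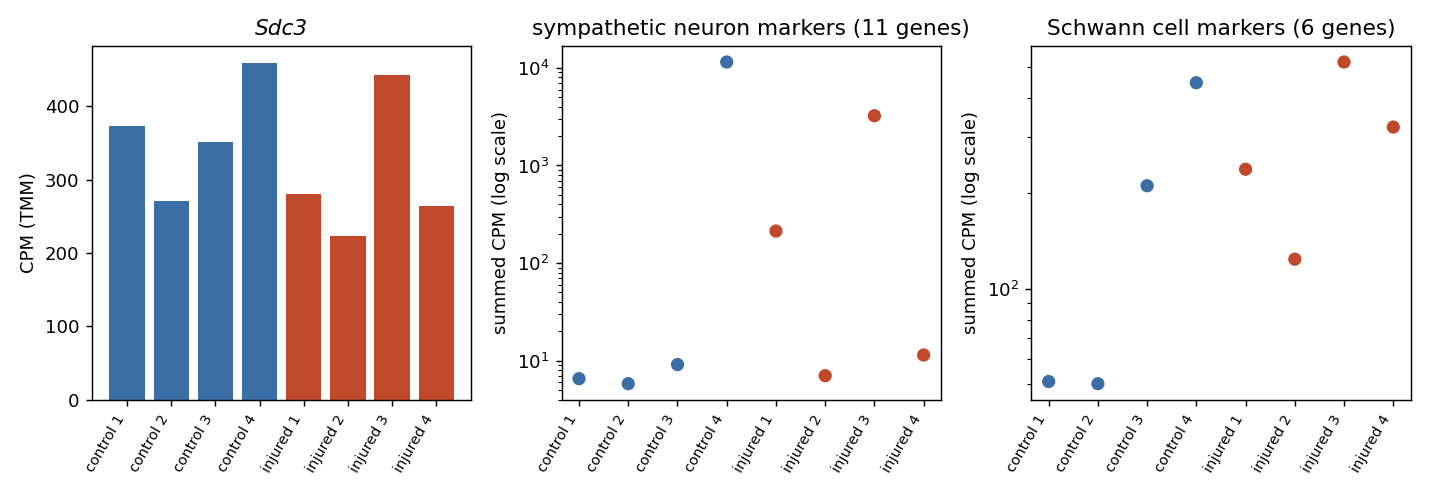
Sdc3 mRNA (left, CPM) and the summed CPM of the sympathetic neuron markers (middle) and Schwann cell markers (right, both on a log scale) in each artery, controls in blue and injured arteries in red. Control artery 4 and injured artery 3, at 459 and 443 CPM of Sdc3, have the highest sums of sympathetic neuron markers, 11480 and 3234 CPM.

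Syndecan-4 (Sdc4) is the syndecan of focal adhesions, where it acts beside integrins that bind fibronectin. Its mRNA was 90.1, 92.8, 69.7 and 45.9 CPM in control arteries 1 to 4. It was 75.5, 79.3, 65.8 and 57.6 CPM in injured arteries 1 to 4, all inside the range of the controls. The mean was 74.6 ± 21.8 CPM (SD, n = 4) in the controls and 69.6 ± 9.79 CPM (SD, n = 4) after injury. The log2 fold change was -0.10 (SE 0.22, FDR = 0.791), with a 95% interval of -0.61 to 0.41 that excludes a fold change of 2 in either direction. The exact permutation p was 0.857, two-sided. Its sign turned under library totals only, to 0.09, and without control artery 2, to 0.01.

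**Figure D4:**
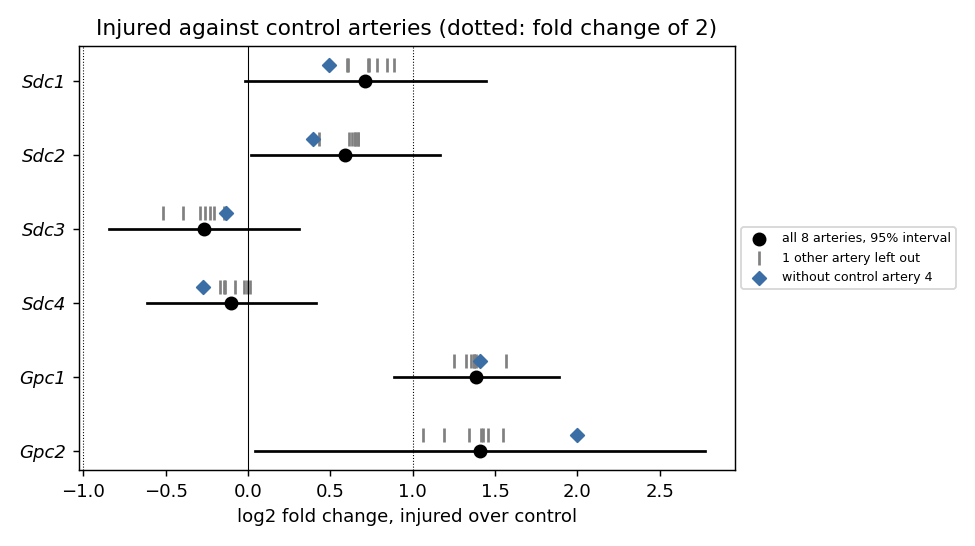
Log2 fold change of the 6 members, injured over control, from edgeR's quasi-likelihood fit with its 95% interval (black), and the estimate with each artery left out (grey, and blue diamond without control artery 4). Dotted lines mark a fold change of 2, and Gpc1 is the 1 member called, at 1.38.

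Of 7 members with a RefSeq promoter sequence in the reference tables used here, the 250 bases before the annotated start of 3 are shown. Gpc2 is shown as a member whose groups did not overlap, Sdc1 as one with a higher mean after injury and overlapping groups, and Sdc4 as the one whose log2 fold change was nearest 0. The sequences are from GRCr8, 5′ to 3′ along the gene. Capitals mark matches, on both strands, so that a match on the opposite strand reads as its reverse complement, to the TATA box (TATAA), the GC box (GGGCGG), the CCAAT box (CCAAT), the AP-1 site (TGACTCA) and the E-box (CACGTG).
Gpc2, chr12:22397823-22398072, minus strand: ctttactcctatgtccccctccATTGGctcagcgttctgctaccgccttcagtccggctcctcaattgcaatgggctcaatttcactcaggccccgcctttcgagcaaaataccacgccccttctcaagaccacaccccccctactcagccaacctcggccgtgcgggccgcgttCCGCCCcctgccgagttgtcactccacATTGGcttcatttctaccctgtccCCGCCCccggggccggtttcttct
Sdc1, chr6:37281791-37282040, plus strand: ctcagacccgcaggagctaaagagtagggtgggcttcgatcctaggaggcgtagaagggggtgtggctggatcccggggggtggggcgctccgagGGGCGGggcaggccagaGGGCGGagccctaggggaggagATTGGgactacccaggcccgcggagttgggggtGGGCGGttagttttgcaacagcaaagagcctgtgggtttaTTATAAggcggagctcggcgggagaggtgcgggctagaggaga
Sdc4, chr3:173592924-173593173, minus strand: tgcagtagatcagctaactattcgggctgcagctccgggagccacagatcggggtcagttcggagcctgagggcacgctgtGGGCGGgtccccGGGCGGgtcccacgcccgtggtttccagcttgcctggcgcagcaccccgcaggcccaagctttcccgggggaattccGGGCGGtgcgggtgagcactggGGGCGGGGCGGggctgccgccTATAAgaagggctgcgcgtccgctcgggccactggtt

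The Gpc2 window held 2 GC boxes and 2 CCAAT boxes, and no TATA box. The Sdc1 window held 3 GC boxes, 1 CCAAT box and 2 TATA matches that overlap each other on opposite strands. The Sdc4 window held 5 GC boxes, some of which overlap each other, and 1 TATA match. Over 27457 promoter windows of the same length, 24.1% held a TATA match, 32.4% a GC box and 34.3% a CCAAT box. An AP-1 site was in 3.98% of them, an E-box in 5.79%, and neither was in the 3 windows shown. Their GC content was 60.8%, 65.2% and 70% for Gpc2, Sdc1 and Sdc4, against a median of 52.0% over all windows. A match of letters is no evidence of binding.

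The genes around these proteoglycans were examined in 7 lists with 105 genes, of which 103 had a row and 87 had enough counts. Of these, 12 were called upregulated and 2 downregulated, or 16.1% of the genes tested, beside the 10.9% called over all genes. Their median log2 fold change was 0.09. The lists for proteins that bind the chains and for their receptors held 10 of the 14 called genes. These were also the lists with the most genes tested, with 5 of 19 and 5 of 20 called. The list for release and chain cleavage had 3 of 8 called.

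No gene of chain assembly was called. The enzymes of the linker and of chain polymerisation, such as Xylt1, Ext1 and Ext2, gave 0 of 14 by edgeR's quasi-likelihood test and 0 by DESeq2, with 3 and 2 at an unadjusted p under 0.05. Their median log2 fold change was 0.04. Of the 3 in edgeR, 1 also passed the FDR threshold, at a fold change under 2. This was Csgalnact1 (log2 fold change 0.73, FDR = 0.0351), with 22.8 ± 4.87 CPM in the controls and 37.9 ± 5.70 CPM after injury (mean ± SD, n = 4 each). Of 9 genes tested for sulfation and editing of the chains, 1 was called. This was Hs3st2, a 3-O-sulfotransferase, with 0.864, 2.05, 0.969 and 10.5 CPM in control arteries 1 to 4 and 0.298, 0.0724, 0.502 and 0.327 CPM in injured arteries 1 to 4. The injured arteries were all below the controls and near the limit that the depth allows, and control artery 4 was far above the other controls. Its log2 fold change was -3.53 (SE 0.98, FDR = 0.0421), and it passed in 3 of the 8 leave-one-out fits.

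Genes listed for release of syndecans and glypicans from the cell surface, or for cleavage of their chains, gave 3 calls among 8 tested, all upregulated. Furin passed the FDR threshold at a fold change under 2 (log2 fold change 0.45, FDR = 0.0243). Adam10 (-0.03, FDR = 0.882), Adam17 (0.45, FDR = 0.104), Mmp2 (0.07, FDR = 0.905) and Gdpd5 (-0.07, FDR = 0.896) were not called. Mmp14, a membrane-bound protease known to cut syndecan-1, rose from 332 ± 122 CPM in the controls to 806 ± 177 CPM after injury (mean ± SD, n = 4 each), with 151 CPM in control artery 4 and 377 to 420 CPM in the other controls. Its log2 fold change was 1.28 (SE 0.32, FDR = 0.0305). Mmp14 was called in 2 of the 8 fits with 1 artery left out. Hpse, the heparanase that cleaves heparan sulfate chains, rose from 2.44 ± 0.77 CPM in the controls to 6.18 ± 1.67 CPM after injury (mean ± SD, n = 4 each), with an FDR of 0.0194. It was called in 6 of those 8 fits. Mmp9, a secreted gelatinase, had at most 0.277 CPM in any control and 3.05, 20.9, 20.9 and 15.7 CPM in injured arteries 1 to 4, with an FDR of 0.0027, and was called in all 8.

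Of 9 tested genes for the partners of syndecans, such as the adaptor Sdcbp (syntenin) and integrin chains, edgeR and DESeq2 called 0, and each had 1 at an unadjusted p under 0.05. Other heparan sulfate proteoglycans gave 0 of 8 in edgeR and 0 of 6 in DESeq2, with 2 and 4 at an unadjusted p under 0.05. The 2 in edgeR also passed the FDR threshold, at fold changes under 2. These were Agrn (log2 fold change 0.48, FDR = 0.019) and Nrp1 (0.64, FDR = 0.0283). Hspg2 (perlecan) had no row under that name.

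Among 19 tested genes for heparin-binding proteins, 4 were called upregulated and 1 downregulated. Tenascin-C (Tnc), a matrix protein of healing tissue, rose from 15.1 ± 10.4 CPM in the controls to 477 ± 165 CPM after injury (mean ± SD, n = 4 each). Thrombospondin-1 (Thbs1) rose from 46.0 ± 39.4 CPM in the controls to 202 ± 100 CPM after injury (mean ± SD, n = 4 each), with 105 CPM in control artery 2 and 120 CPM in injured artery 1. Their FDR was 0.00109 and 0.04, and they were called in 8 and 2 of the 8 fits with 1 artery left out. Pdgfa, a growth factor for smooth muscle cells and fibroblasts, rose from 41.9 ± 6.33 CPM in the controls to 88.1 ± 18.8 CPM after injury (mean ± SD, n = 4 each), a log2 fold change of 1.07 (SE 0.18, FDR = 0.00613). Ihh, a hedgehog ligand, fell from 5.36 ± 1.84 CPM in the controls to 2.07 ± 0.31 CPM after injury (mean ± SD, n = 4 each), with an FDR of 0.0177. Pdgfa and Ihh were each called in 6 of the 8 fits. Shh, another hedgehog ligand of the list, had 0 CPM in every control and 0.290 to 2.12 CPM after injury. It had too few counts for the test in edgeR, and DESeq2 called it upregulated.

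Of 20 tested receptor genes, 5 were called, all upregulated. Fgfr4, a fibroblast growth factor receptor, had 0.328 to 0.360 CPM in the controls and 1.34 to 2.61 CPM after injury, with a log2 fold change of 2.33 (SE 0.33, FDR = 0.0027). Its control levels were near the limit that the depth allows, 0.196 to 0.223 CPM in the control libraries. When every artery needed at least 10 counts, Fgfr4 was not tested, because its controls had fewer. By log2 fold change, Fgfr1 (-0.25, FDR = 0.452), Fgfr2 (-1.14, FDR = 0.0874) and Fgfr3 (-0.0005, FDR = 0.999) were not called in edgeR. DESeq2 called Fgfr2 downregulated. Robo2, a receptor for Slit proteins, had 1.85 to 4.39 CPM in the controls and 7.64 to 19.1 CPM after injury. Met, the receptor of hepatocyte growth factor, rose from 6.22 ± 2.36 CPM in the controls to 18.1 ± 5.16 CPM after injury (mean ± SD, n = 4 each). Flt1, a receptor of vascular endothelial growth factor, rose from 30.9 ± 9.51 CPM in the controls to 67.2 ± 8.33 CPM after injury (mean ± SD, n = 4 each). The FDR of Robo2, Met and Flt1 was 0.00907, 0.0144 and 0.0157. Fgfr4, Robo2 and Met were called in all 8 fits with 1 artery left out, and Flt1 in 6. The 2 called genes not yet described, named after their values were seen, were Slit2, a ligand of Robo receptors, with a log2 fold change of 1.13 (FDR = 0.0175), and Kdr, the main signalling receptor of vascular endothelial growth factor, with 2.03 (FDR = 0.00728). Slit2 was called in 4 of the 8 fits and Kdr in all 8.

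**Figure D5:**
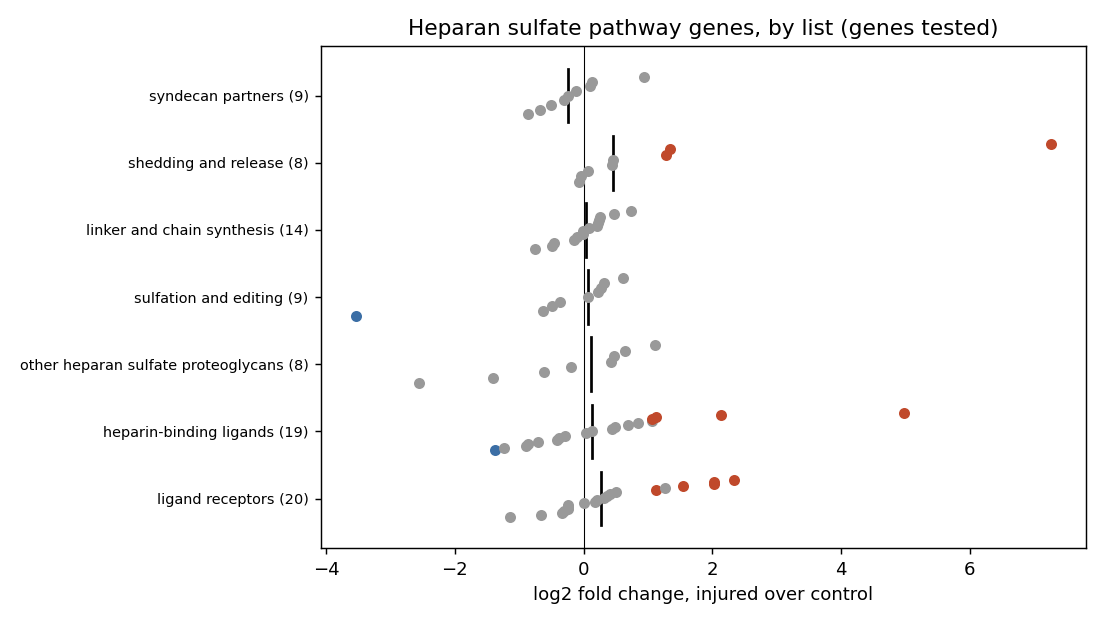
Log2 fold change, injured over control, of the tested genes in each of the 7 lists (number tested in parentheses), with called genes in red (upregulated) and blue (downregulated) and the list's median as a black line. Called genes lie mostly among chain-binding proteins and their receptors (10 of 14), the lists with the most genes tested (19 and 20 of 87). No gene of linker and chain synthesis is called. The point of Mmp9 far to the right rests on controls at or near 0.

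Marker mRNA of several cell types differed between the groups. The 10 contractile smooth muscle markers, which define the labelled tissue, summed to 38620 to 52400 CPM in controls 1 to 3, 17790 CPM in control artery 4 and 10800 to 17120 CPM in the injured arteries. The 10 macrophage markers summed to 184 to 254 CPM in the controls and 770 to 1037 CPM in the injured arteries, and 9 of 10 were called upregulated. The sums of 9 cartilage markers were 22.7 to 34.0 and 126 to 411 CPM, and those of 9 skeletal muscle markers 83.1 to 253 and 302 to 1099 CPM. Of the skeletal muscle markers, 7 were called upregulated, among them Myh1 (mean 0.251 CPM in the controls and 132 CPM after injury) and Mylpf (0.142 and 41.5 CPM). Acta1 and Ckm, with means of 115 and 24.7 CPM in the controls, were not called. Acan and Comp made up most of the cartilage sum after injury, with means of 116 and 117 CPM, while Col9a1 of the same list was called downregulated (log2 fold change -2.01, FDR = 0.0343). Of 7 cartilage markers tested, 4 were called upregulated, and Col2a1 (FDR = 0.119) and Col11a2 (FDR = 0.301) were not called. Hapln1 and Cnmd had too few counts for the test. Their means were 0.255 and 0.605 CPM in the controls and 0.138 and 0.361 CPM after injury. The sums of 8 endothelial markers overlapped, at 882 to 2368 and 799 to 1141 CPM. So did the sums of 6 adventitial fibroblast markers in the table, at 1776 to 3552 and 1835 to 3140 CPM, and of 6 adipocyte markers, at 48.4 to 382 and 43.0 to 187 CPM. These sums held genes that moved in opposite directions. Of the endothelial markers, Cdh5 (1.06, FDR = 0.0063) and Emcn (1.43, FDR = 0.00518) were called upregulated and Vwf (-1.65, FDR = 0.0206) downregulated, by log2 fold change. Tie1 (0.58) and Egfl7 (0.64) had positive and Pecam1 (-0.44), Tek (-0.26) and Nos3 (-0.29) negative log2 fold changes, and none of these was called. Flt1 and Kdr, receptors known from endothelium, were called upregulated, and their cell source was not tested. Of the fibroblast markers, Dpt and Dpp4 were upregulated and Pi16 and Dcn downregulated. The labels' extraction text speaks of brain. Of 6 brain markers, Neurod6, Slc17a7 and Gad2 stayed under 1 CPM in every artery. Gad1 reached 2.21 CPM in control artery 2, Rbfox3 reached 2.32 CPM in control artery 4 and 1.73 CPM in injured artery 3, and Gfap, which Schwann cells also express, made up most of a sum of up to 197 CPM. Whether cells of each of these types were present, and how far they contributed to the level of Gpc1 or of the syndecans, was not tested.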

How the data were processed

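mRNA was sequenced from 4 injured and 4 control carotid arteries. The authors deposited raw counts per gene symbol, without normalization. The submitters' processing notes name HISAT2 2.0.4, and the counting tool, genome build and strand setting are not given in the sources used here. Each of the 8 columns carries the name of 1 artery in the labels. The control arteries served as self-controls, so the groups share animals, but nothing says that the same replicate number marks the same animal, so the p-values measure only the spread between these libraries, which may be technical in part.

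The groups were compared by the quasi-likelihood test of edgeR 4.0.16 (R 4.3.3), scaled by TMM and with no covariate, in the 14359 of 37209 genes that filterByExpr kept. P-values were adjusted by the Benjamini-Hochberg method over these genes. Calls needed a fold change over 2 with an FDR below 0.05, the criteria of the study, which used DESeq. Standard errors came from the F statistic and 95% intervals from the t distribution of the fit. Log2 CPM for the permutation tests had a prior count of 2. CPM are scaled by the library total times its TMM factor, and the limit for a count of 0 was 3 counts over the library total. Total counts lay between 13470754 and 15276952 in the controls and between 11459632 and 16658089 in the injured arteries.

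Members and lists were found by symbol, upper and lower case being equal, and GRCr8 synonyms added 3 marker genes (Jchain, Adgre1 and Cnmd). Named genes are the members, the called genes of each list (with more than 4 called, those with the 2 largest and 2 smallest log2 fold changes) and the 3 nearest profiles of each called member. The members and lists were chosen with earlier results of these data known. Some items of the Schwann cell list, not chosen by their values, were left out of its sum after the analysis and are not reported here. The choice to name Ankmy1, Slit2, Kdr, Agrn, Nrp1, Csgalnact1, Fgfr1, Fgfr2, Fgfr3, the X-linked genes, Jchain and other single markers was made with their values in view. Shh, Furin, Adam10, Adam17, Mmp2 and Gdpd5 were also named with their values in view. Gene levels are not compared between genes, because transcript lengths were not used here. The alternatives were DESeq2 1.42.0, other scalings, filters and thresholds, the replicate number as a block, and leaving out each artery. Leaving out control artery 4 together with injured artery 3 was chosen after seeing the data.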

Additional observations from a re-analysis of the deposited data

Results flagged for a closer look

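Among 40 groups of 4 arteries examined, those of the 6 tested members and of the 14 called pathway genes, in 6 the highest or lowest artery stood apart, its distance from the next artery as a share of the group's range exceeding Dixon's 95% critical value. About 2.0 are expected by chance. In 3 groups, control artery 4 stood apart. It was low for Sdc2, with 84.8 CPM against 168 CPM in the nearest control (share 0.942), and for Mmp14, with 151 against 377 CPM (0.841). It was high for Hs3st2, with 10.5 against 2.05 CPM (0.876). The other 3 had no artery in common. Thbs1 had 105 CPM in control artery 2 against 32.4 CPM (0.85), and Met had 25.8 CPM in injured artery 4 against 16.2 CPM (0.88). Kdr, a receptor of vascular endothelial growth factor named here because of this gap, had 5.47 CPM in control artery 1 against 16.1 CPM (0.838). No explanation was tested for these gaps.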

How the results depend on the processing

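The 6 tested members were refitted 95 times, the FDR threshold alone and the test against a fold change of 2 not included. Of these refits, 91 kept the direction and the call, which needs both thresholds. Among these, the FDR of Sdc2 fell below 0.05 with library totals only (0.0485 in edgeR) and without control artery 4 and injured artery 3 (0.0346), at fold changes under 2. Gpc1 was called in every alternative except the test against a fold change of 2, which called 0 of the 6 members (1 at an unadjusted p under 0.05), with a log2 fold change between 1.25 and 1.57. The number of members called was 1 to 2 with each artery left out, and 2, Gpc1 and Gpc2, without control artery 4, alone or together with injured artery 3. The sign of Sdc4 turned with library totals only (0.088) and without control artery 2, with a range of -0.28 to 0.013 over the fits with each artery left out. Library totals only moved the median of all genes by 0.17 on the log2 scale. A prior count of 0.5 changed no permutation call, and for Sdc2, Gpc1 and Gpc2 it could not, because their groups do not overlap.

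Of the pathway genes, 14 were called. This number was 3 (Fgfr4, Mmp9 and Tnc) against a fold change of 2, and 24 without control artery 4 and injured artery 3. With each artery left out it ranged from 7 to 20, being 7 without injured artery 2, 9 without injured artery 4 and 20 without control artery 4. The share called over all genes moved too, from 10.9% to 4.6% against a fold change of 2. It was 7.82% without injured artery 2, 7.74% without injured artery 4 and 16.2% without control artery 4. Without control artery 4 and injured artery 3 it was 17.2%. With the replicate block, 9 pathway genes were called, with Mmp14, Hpse, Hs3st2, Ihh and Slit2 no longer called. Over all genes, 1187 against 1562 were called with the block. Gpc1 was still called (1.33, adjusted p = 0.0218 in edgeR's test) and no other member was. After the group means were taken off, injured and control arteries with 1 number correlated at 0.30, 0.45, -0.52 and -0.42, and 3 of 8 arteries correlated best with their own number, so the pairing is not shown by these data. What causes these shifts was not tested.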
